A study of Canis lupus familiaris with 6 samples.

Results

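The AP-1 factors FOS, FOSB, FOSL1, FOSL2, JUN, JUNB, JUND and ATF3 were examined together with EGR1 and MYC, the transcription factors of the immediate early and delayed early response. All non-control probes carrying one of these 10 gene names were taken, which gave 12 of the 43603 probes on the array, with 2 probes each for FOSL2 and EGR1 and 1 probe for every other gene. All 12 probes passed the intensity filter that left 40861 probes for testing.

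RNA was compared on Agilent canine oligo microarrays between canine mammary tumor cells grown alone (monoculture) and the same cells sharing medium with myeloid-derived suppressor cells (MDSCs) through a transwell insert (co-culture). The lines came from a spindle cell tumor (CMT-U309), a simple carcinoma (CMT-U27) and an anaplastic cancer (P114), and all were kept in the same serum-enriched RPMI medium, so that the monocultures were also grown in serum. The MDSCs were sorted from blood of healthy dogs as CD11b+/Gr1+/CD33+ cells, and co-culture lasted at least 72 h in the deposited descriptions, while the methods give a shorter time. Each line was hybridized on 2 arrays with the dyes exchanged, where array 1 held the co-culture RNA in the Cy5 channel and array 2 held it in Cy3, which made 6 arrays and 12 channels. Both arrays of a line carried the same pair of RNA samples and counted as 1 replicate, so a single line has no test of the co-culture effect, and nothing in the descriptions says how many cultures stood behind an RNA sample. The p-values therefore measure only the spread between these samples. Both arrays of a line lay on 1 slide, so a difference between lines on different slides cannot be told apart from one between slides. Because whole cultures were measured, fewer cells of a kind and less RNA per cell cannot be told apart either.

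AP-1 is a dimer of a JUN protein with a FOS, JUN or ATF partner, joined through a leucine zipper, that binds short DNA elements in promoters and enhancers. FOS, FOSB, JUNB, ATF3 and EGR1 are switched on within minutes when serum, growth factors or stress activate the MAP kinases, and MYC, which pairs with MAX to drive growth and ribosome genes, follows them. FOSL1, FOSL2 and JUN often stay high in invasive and mesenchymal tumor cells, whereas JUNB and JUND are known to restrain growth in many settings. An array taken after days of co-culture reads the standing level of these transcripts.

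The probe sequences below are those given with the scanner output, 60 bases long, with coordinates on canFam2. JUN is shown because its signal differed most between the lines, both FOSL2 probes because they read different stretches of the gene and differed in their ratios, and JUNB because its ratios were the most scattered. The JUN probe lies on the plus strand at chr5:53970988-53971047. The first FOSL2 probe, A_11_P052516, lies on the plus strand at chr17:25463735-25463794. The other, A_11_P00000278, is placed on the plus strand at chr17:25444872-25455299, a span of 10428 bases for 60 bases of probe, so its genomic match is interrupted. The JUNB probe lies on the minus strand at chr20:52362218-52362277 and has a GC content of 83.3%, against 38.3% to 58.3% for the 11 other probes. No exon or UTR annotation of this build was used here.
JUN: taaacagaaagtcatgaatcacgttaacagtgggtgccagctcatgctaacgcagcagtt
FOSL2 A_11_P052516: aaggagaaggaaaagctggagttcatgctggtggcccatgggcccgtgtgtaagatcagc
FOSL2 A_11_P00000278: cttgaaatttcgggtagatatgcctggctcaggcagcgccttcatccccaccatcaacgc
JUNB: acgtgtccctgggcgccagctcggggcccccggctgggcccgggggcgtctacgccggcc

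The share of probes well above background ran from 53.0% to 77.0% over the co-culture channels and from 55.2% to 81.0% over the monoculture channels. Of the 12 member probes, 9 were well above background in all 12 channels. The exceptions were both FOSL2 probes in the co-culture channel of CMT-U27 array 2 and JUNB in the co-culture channel of CMT-U309 array 2, where the software had set a surrogate value. P114 stood apart in the co-culture comparison. Its 2 arrays, both turned to co-culture over monoculture, correlated at -0.39 over all probes, against 0.26 for the arrays of CMT-U27 and -0.09 for those of CMT-U309. Averaged over its arrays, CMT-U27 correlated at 0.58 with CMT-U309, and P114 at -0.08 with each of them. Whether 1 of the P114 arrays has its dyes labelled the other way round cannot be told from the files. Directions follow the labels, and a wrong label would turn the sign of that array's ratios and exchange its monoculture and co-culture levels. Both P114 arrays would then hold the co-culture RNA in the same dye. With 1 array turned, a dye effect thus no longer cancels in the mean of P114. Mean ratios are therefore given without P114. For the members that moved they are also given with either of its arrays turned, an alternative chosen after the data were seen. P114 was singled out because its ratios departed from those of the other lines. The lines left were thus picked for agreeing in these same data, so their adjusted p is no independent support. The epithelial markers (EPCAM, KRT19, CDH1, CLDN4 and ESRP1) had a summed signal between 107591 and 121963 in CMT-U27, between 1244 and 1695 in P114 and between 247 and 271 in CMT-U309. The 6 mesenchymal markers (VIM, SPARC, COL1A1, COL3A1, CDH2 and ZEB1) summed to between 2697 and 3114 in CMT-U27 and between 189183 and 308931 in the other lines. P114, labelled an anaplastic cancer, lay with the spindle cell line in the mesenchymal sum and between the other lines in the epithelial sum, where KRT19 was 4.96 and EPCAM 2.50 higher on the log2 scale than in CMT-U309 and ESRP1 differed by -3.02.

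The first question was which of these factors each tumor line carried. JUN was the member that differed most. It was lower in the simple carcinoma line CMT-U27 than in P114 and CMT-U309 by 7.92-fold and 7.74-fold, and FOSL2 was lower there on both of its probes. FOS was highest in CMT-U27 and lowest in CMT-U309, EGR1 was lowest in P114, and ATF3 was lowest in CMT-U27. Levels are log2 processed signals, each channel scaled to a common median, and a level is compared only within its own probe. Differences between lines were tested with limma over 6 RNA samples, the monoculture and co-culture RNA of each line, with condition in the fit. A difference was called where the Benjamini-Hochberg adjusted p over all probes was under 0.05 and the fold over 2. At this rule 24.2% of all probes differed between P114 and CMT-U27, 14.5% between P114 and CMT-U309 and 28.9% between CMT-U27 and CMT-U309. Of the 12 member probes, 6, 2 and 4 were called in these comparisons, and with 1 probe a gene 4, 1 and 3 of the 10 genes. P114 was higher on 4 and lower on 2 member probes against CMT-U27 (11.6% and 12.6% of all probes) and lower on 2 against CMT-U309 (6.91%, with 7.60% higher), while CMT-U27 was higher on 1 and lower on 3 against CMT-U309 (15.6% and 13.3%). By the adjusted p alone, 11, 6 and 6 of the 12 member probes differed, beside 41.3%, 29.5% and 46.6% of all probes. Without scaling these counts were 7, 7 and 7, and with eBayes without a trend 10, 3 and 4.

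**Figure D1:**
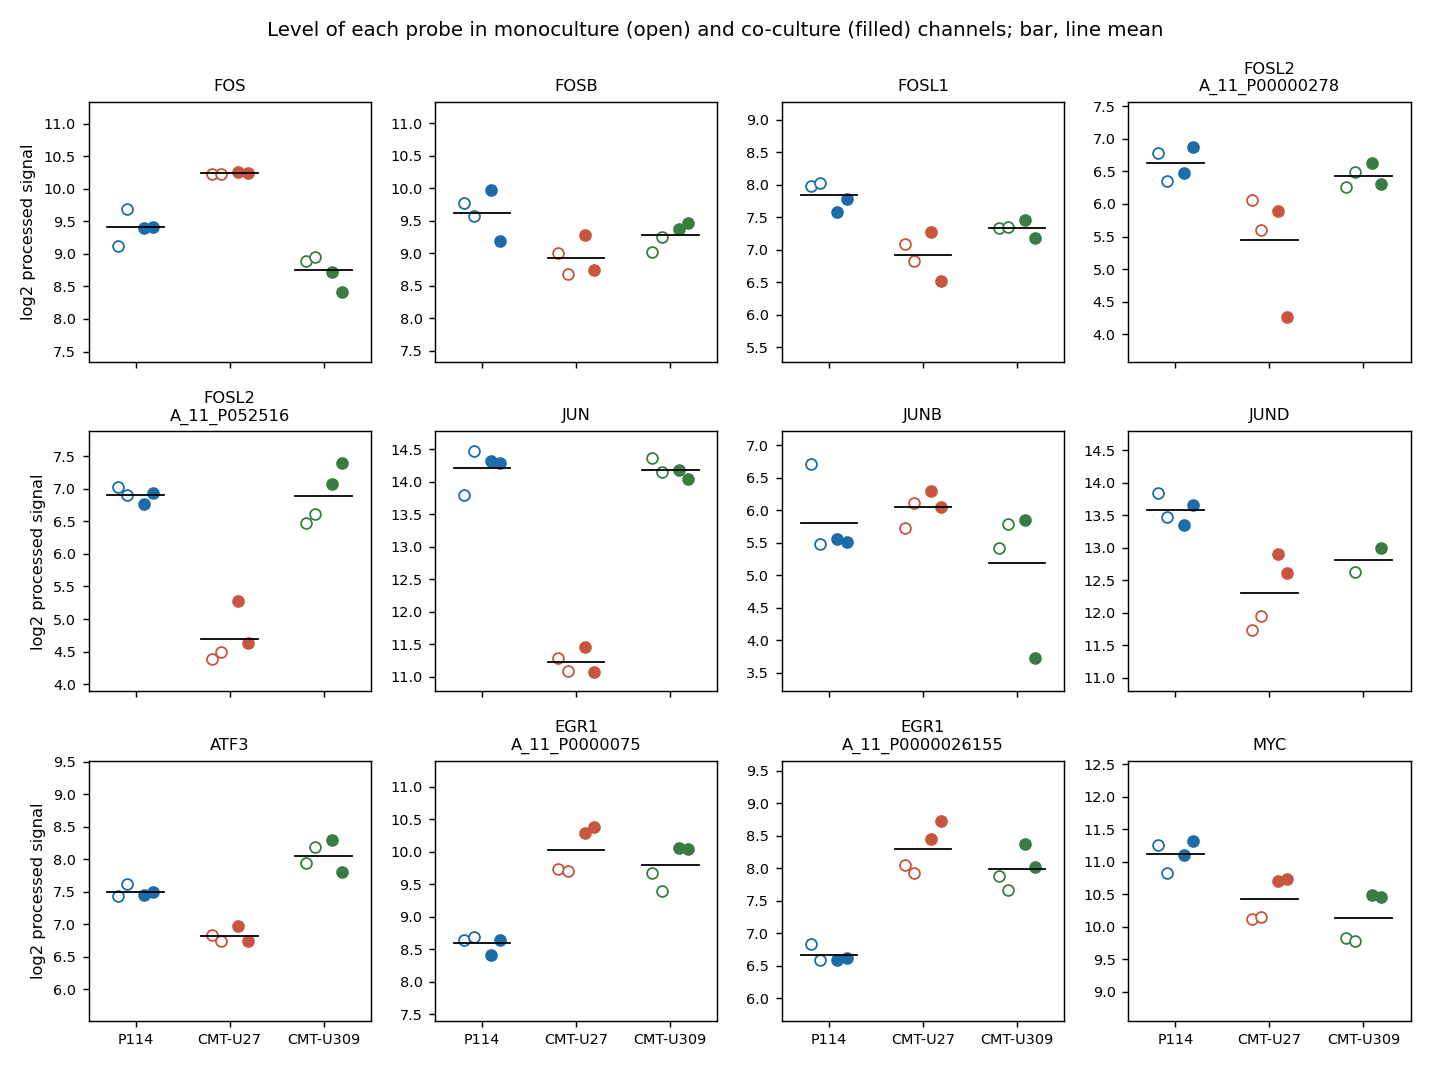
Level of each of the 12 member probes in every channel, as log2 processed signal (y axis) in each line (x axis); open circles are monoculture channels, filled circles co-culture channels and bars the mean of a line. JUN in CMT-U27 sits between 11.08 and 11.46, apart from every channel of the other lines, and EGR1 (A_11_P0000075) in P114 sits between 8.42 and 8.69, below every channel of the other lines; JUND has no value for CMT-U309 array 1.

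Among the FOS proteins, which bind DNA only with a JUN partner, FOS had a log2 level of 10.23 in monoculture and 10.25 in co-culture in CMT-U27. In P114 the levels were 9.41 in monoculture and 9.41 in co-culture, and in CMT-U309 they were 8.92 and 8.57. Every channel of CMT-U27 was above, and every channel of CMT-U309 below, all channels of the other lines, which held for 16.4% and 10.0% of all probes. FOS was 2.82-fold higher in CMT-U27 than in CMT-U309 (95% interval of the log2 difference 1.15 to 1.84, adjusted p = 2.78e-05). It also passed the adjusted p between P114 and CMT-U27, with a difference of -0.83 (adjusted p = 0.00167), and between P114 and CMT-U309, with a difference of 0.66 (adjusted p = 0.00926), both under 2-fold. Leaving the channels unscaled shifted the median of all probes by -0.77 between P114 and CMT-U309, -0.45 between P114 and CMT-U27 and -0.32 between CMT-U27 and CMT-U309, and the FOS difference between P114 and CMT-U309 was then -0.11. Without P114 array 2 it was 0.52 and missed the adjusted p (0.0878). With background correction by normexp the difference between CMT-U27 and CMT-U309 was 0.97, just under the fold asked for.

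FOSL2, a late FOS relative, ran the other way. On probe A_11_P052516 its log2 levels in monoculture and co-culture were 6.97 and 6.86 in P114, 6.55 and 7.23 in CMT-U309, and 4.43 and 4.95 in CMT-U27. All 4 channels of CMT-U27, from 4.38 to 5.28, lay below those of the other lines. The same non-overlap was found on probe A_11_P00000278, where CMT-U27 channels ran from 4.26 to 6.06 and those of the other lines from 6.26 to 6.88. Across the array 10.3% of probes had every CMT-U27 channel lowest. FOSL2 was higher in P114 than in CMT-U27 by 4.65-fold on the first probe (log2 difference 2.22, SE 0.25, adjusted p = 6.08e-05) and by 2.25-fold on the other (1.17, SE 0.26, adjusted p = 0.00524). Against CMT-U309 the differences of CMT-U27 were -2.19 (adjusted p = 5.36e-05) and -0.97 (adjusted p = 0.0123), the latter under 2-fold. P114 and CMT-U309 differed by 0.02 (95% interval -0.53 to 0.58) and 0.20 (-0.39 to 0.79). The size of the FOSL2 difference depended on the background correction, since normexp left 0.73 and 0.29 between P114 and CMT-U27. On probe A_11_P00000278 the adjusted p was 0.0522, with a difference of 0.65, when CMT-U27 array 2 was left out, and CMT-U27 then differed from CMT-U309 by -0.45 (adjusted p = 0.159).

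FOSL1, a FOS relative linked to invasion, had a line mean of 7.84 in P114, 7.33 in CMT-U309 and 6.92 in CMT-U27. All P114 channels, from 7.58 to 8.03, were above those of the other lines, as for 7.08% of all probes, though without scaling the difference between P114 and CMT-U309 turned to -0.25. The difference between P114 and CMT-U27 was 1.89-fold (log2 0.92, SE 0.18, adjusted p = 0.00239), under the fold asked for and 0.46 without scaling (adjusted p = 0.0642), and CMT-U309 lay between them without passing the adjusted p against P114 (0.51, adjusted p = 0.0579) or CMT-U27 (-0.41, adjusted p = 0.0934). FOSB had the smallest range of line means among the members, from 8.93 in CMT-U27 over 9.28 in CMT-U309 to 9.62 in P114. P114 and CMT-U27 differed by 0.70 (adjusted p = 0.00474), and their channels overlapped. The difference missed the adjusted p without scaling (0.24, adjusted p = 0.255), without P114 array 1 (0.45, adjusted p = 0.0876) and without CMT-U27 array 2 (0.49, adjusted p = 0.0508).

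In the JUN family, JUN is the strongest activator and the usual partner of FOS proteins. Its log2 level in monoculture and co-culture was 14.13 and 14.30 in P114, 14.26 and 14.11 in CMT-U309, and 11.19 and 11.27 in CMT-U27. Channels ran from 13.79 to 14.47 in P114, from 14.04 to 14.37 in CMT-U309 and from 11.08 to 11.46 in CMT-U27, so the lines were split into a high pair and a low line with a gap of more than 2 on the log2 scale. JUN was 7.92-fold higher in P114 than in CMT-U27 (log2 difference 2.99, SE 0.14, adjusted p = 1.14e-07) and 7.74-fold higher in CMT-U309 than in CMT-U27 (adjusted p = 1.15e-07). P114 and CMT-U309 differed by 0.03, with a 95% interval from -0.28 to 0.35. Over 17 alternative settings the difference between P114 and CMT-U27 stayed between 2.52 and 3.15 and was called each time. The sign of the small difference between P114 and CMT-U309 did not hold over the settings.

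JUND, a JUN protein present in most resting cells, was highest in P114. Its level in monoculture and co-culture was 13.66 and 13.50 in P114 and 11.85 and 12.75 in CMT-U27. In CMT-U309 the spot on array 1 was flagged as an outlier and dropped, and the values of 12.62 and 13.00 rest on array 2 alone, where the dyes are not balanced. P114 was 2.43-fold higher than CMT-U27 (log2 difference 1.28, SE 0.21, adjusted p = 8.51e-04) and 1.70-fold higher than CMT-U309 (0.77, adjusted p = 0.0216). Without scaling of the channels the first difference was 0.81, under 2-fold. The difference to CMT-U309 missed the adjusted p in 6 alternatives, with values from 0.34 (normexp, adjusted p = 0.321) to 0.78 (without P114 array 2, adjusted p = 0.0824). All P114 channels lay above those of the other lines, as for 7.08% of all probes, though CMT-U309 had only the channels of array 2.

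JUNB, often an antagonist of JUN, was dim on this probe, with line means of 6.04 in CMT-U27, 5.81 in P114 and 5.19 in CMT-U309. Channels of CMT-U309 spread from 3.72 to 5.85, the lowest being the surrogate value. CMT-U27 and CMT-U309 differed by 0.85 (SE 0.29, adjusted p = 0.0350), under 2-fold, which fell to 0.41 (adjusted p = 0.263) without the array of the surrogate value and missed the adjusted p in 8 alternatives in all. P114 did not pass the adjusted p against CMT-U27 (-0.23, adjusted p = 0.543) or CMT-U309 (0.62, adjusted p = 0.144).

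ATF3, a stress-induced partner of JUN proteins, had line means of 8.06 in CMT-U309, 7.50 in P114 and 6.83 in CMT-U27. No channels of different lines overlapped, with CMT-U27 from 6.74 to 6.97, P114 from 7.44 to 7.62 and CMT-U309 from 7.80 to 8.30, and 7.01% of all probes had every CMT-U309 channel highest. CMT-U309 was 2.35-fold higher than CMT-U27 (CMT-U27 minus CMT-U309 -1.23, SE 0.17, adjusted p = 2.24e-04), and normexp left -0.79. P114 passed the adjusted p against both lines at under 2-fold, with 0.68 over CMT-U27 (adjusted p = 0.0102) and -0.55 against CMT-U309 (adjusted p = 0.0356). Without scaling the first was 0.21 (adjusted p = 0.373), and the other missed the adjusted p in 7 alternatives, at up to 0.148 without CMT-U309 array 1.

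EGR1, a zinc finger factor that shares its upstream ERK and SRF input with FOS, was lowest in P114 on both probes. On the brighter probe, A_11_P0000075, its levels in monoculture and co-culture were 8.67 and 8.53 in P114, 9.72 and 10.34 in CMT-U27, and 9.53 and 10.04 in CMT-U309. On A_11_P0000026155 they were 6.72 and 6.61, 7.99 and 8.59, and 7.77 and 8.19 in the same order. Every P114 channel lay below every channel of the other lines on both probes, a pattern found for 5.02% of all probes. P114 was lower than CMT-U27 by 2.69-fold (log2 difference -1.43, SE 0.19, adjusted p = 2.04e-04) and 3.09-fold (-1.63, SE 0.20, adjusted p = 1.32e-04) on the 2 probes. Against CMT-U309 it was lower by 2.28-fold (-1.19, adjusted p = 0.00118) and 2.50-fold (-1.32, adjusted p = 9.40e-04). CMT-U27 and CMT-U309 differed by 0.24 (95% interval -0.19 to 0.67) and 0.31 (-0.15 to 0.76). With normexp all 4 differences of P114 kept an adjusted p under 0.05 but lay between -0.96 and -0.77, under 2-fold. FOS and EGR1 were ordered differently over these lines.

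MYC had levels in monoculture and co-culture of 11.04 and 11.21 in P114, 10.14 and 10.71 in CMT-U27, and 9.81 and 10.47 in CMT-U309. All P114 channels, from 10.83 to 11.32, were above those of the other lines, as for 7.08% of all probes. The difference between P114 and CMT-U309 was 1.98-fold (log2 0.99, SE 0.16, adjusted p = 0.00105), at the edge of the fold asked for. It crossed that edge, at 1.04 and 1.00, when P114 array 2 or CMT-U309 array 1 was left out. P114 exceeded CMT-U27 by 0.70 (adjusted p = 0.00488). Neither difference passed the adjusted p without scaling, at 0.22 against CMT-U309 (adjusted p = 0.263) and 0.24 against CMT-U27 (adjusted p = 0.257), and the latter missed it with eBayes without a trend (0.0561), while CMT-U27 and CMT-U309 differed by 0.29 (95% interval -0.06 to 0.63).

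**Figure D2:**
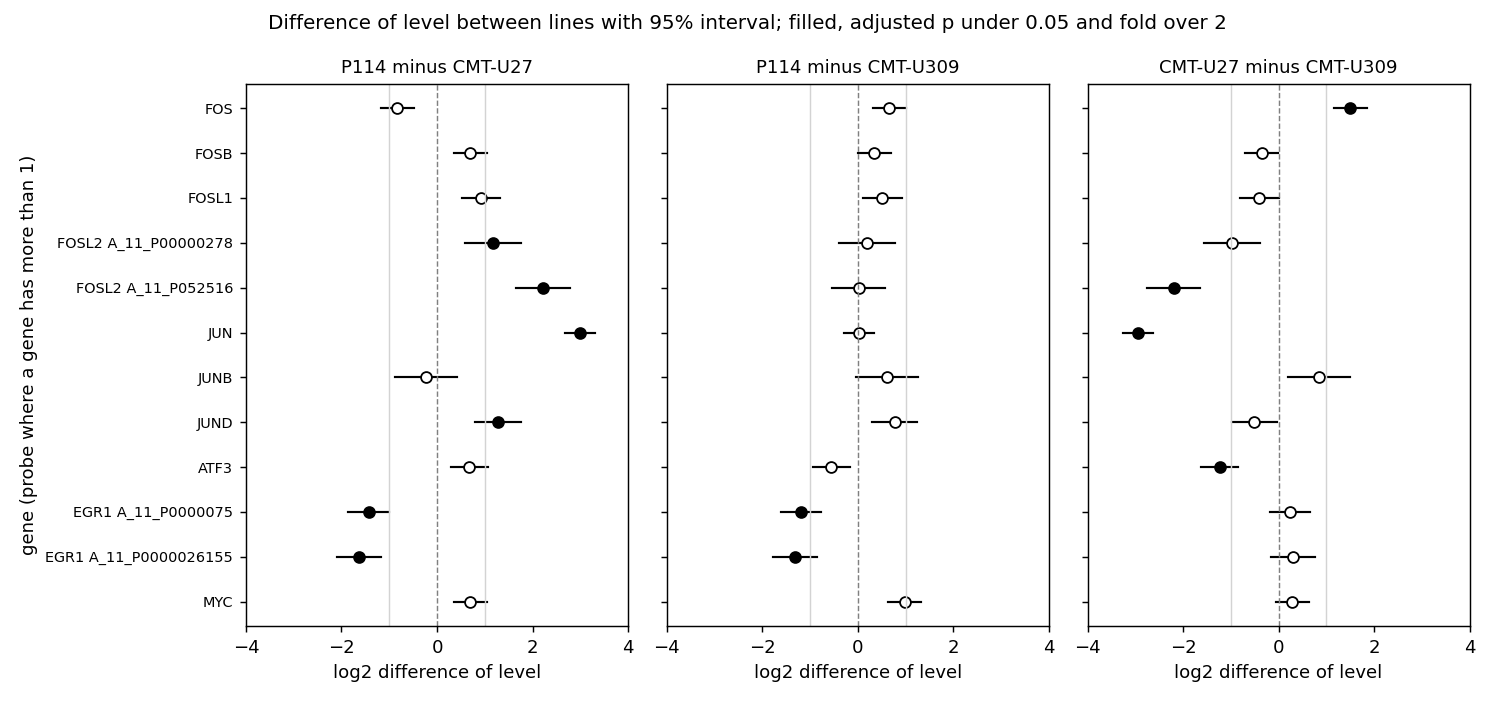
Difference of the log2 level between lines (x axis) for each member probe (y axis), with the 95% interval as a bar; filled circles passed an adjusted p of 0.05 and a fold of 2, and grey lines mark a fold of 2. JUN stands at 2.99 in P114 minus CMT-U27 and at -2.95 in CMT-U27 minus CMT-U309, and only the EGR1 probes are filled in P114 minus CMT-U309.

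The second question was whether these factors differed between co-culture with MDSCs and monoculture. None of the 12 member probes passed the thresholds of the methods, an unadjusted p under 0.05 with a fold over 2, which 1.22% of all probes did. MYC alone had an unadjusted p under 0.05, against 9.93% of all probes in either direction and 5.78% in the direction of co-culture, and was 1.38-fold higher in co-culture. After Benjamini-Hochberg adjustment 0 of 40861 probes passed in limma, 4058 had an unadjusted p under 0.05, and the smallest adjusted p was 0.233. Values are log2 ratios of co-culture over monoculture, averaged over the arrays of a line and then over 3 lines. A log2 ratio of 0.5 is about a 1.4-fold difference.

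MYC had log2 ratios of -0.14 and 0.49 on arrays 1 and 2 of P114, 0.57 and 0.57 of CMT-U27, and 0.65 and 0.67 of CMT-U309. It was higher in co-culture on 5 of 6 arrays, with P114 array 1 the exception. The mean over lines was 0.47 (SE 0.13, 95% interval 0.18 to 0.75, n = 3 lines), with an unadjusted p of 0.00437 and an adjusted p of 0.499 in limma. Over the 3 lines the SD of the ratio was 0.26. Without P114 the mean of the 2 other lines was 0.62 (SE 0.10), with an adjusted p of 0.00312 in limma. Leaving out P114 moved the whole array, since 6169 probes or 15.1% then passed the adjusted p, 8.76% of all probes being higher in co-culture. With P114 array 1 turned, its MYC ratio would be 0.14 and the mean 0.52 (adjusted p = 0.0221), and with array 2 turned the mean was 0.30 (unadjusted p = 0.128). With array 1 turned 3260 probes passed the adjusted p.

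EGR1 showed a positive ratio in CMT-U27 and CMT-U309 and, by the labelled dyes, a negative one in P114 on its brighter probe. The ratios of A_11_P0000075 were -0.23 and -0.05 on the arrays of P114, 0.55 and 0.68 of CMT-U27, and 0.39 and 0.64 of CMT-U309. Those of A_11_P0000026155 were -0.25 and 0.03, 0.39 and 0.80, and 0.49 and 0.35 in the same order. Over the 3 lines the means were 0.33 (SE 0.16, adjusted p = 0.501) and 0.30 (SE 0.17, adjusted p = 0.534). Without P114 they were 0.56 (SE 0.10, adjusted p = 0.00567) and 0.51 (SE 0.13, adjusted p = 0.0237). With P114 array 1 turned they were 0.41 (adjusted p = 0.0655) and 0.39 (adjusted p = 0.0998), the brighter probe then having 0.23 and -0.05 in P114, and with array 2 turned 0.35 and 0.29. The difference between P114 and the other lines was not tested, as each line was 1 pair of RNA samples.

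JUND had ratios of -0.49 and 0.19 on the arrays of P114, 1.16 and 0.65 of CMT-U27, and 0.37 on the single usable array of CMT-U309. Its mean was 0.37 (SE 0.17, unadjusted p = 0.0574, adjusted p = 0.4997 in limma). Without P114 it was 0.64 (SE 0.12, adjusted p = 0.00625), and with the outlier spot kept the mean over 3 lines was 0.49 (adjusted p = 0.502). It was 0.54 (adjusted p = 0.0327) with P114 array 1 turned and 0.31 with array 2 turned. MYC, JUND and both EGR1 probes were the 4 of 12 member probes past the adjusted p once P114 was left out. All 4 were higher in co-culture, as were 8.76% of all probes at that p. Without CMT-U27 or without CMT-U309, 0 member probes passed it. Without CMT-U27 the means were 0.42 for MYC, 0.19 and 0.15 for the EGR1 probes and 0.11 for JUND. Without CMT-U309 they were 0.37, 0.24, 0.24 and 0.38 in the same order.

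The FOSL2 probes did not move together. A_11_P052516 had ratios of -0.25 and 0.03 in P114, 0.90 and 0.14 in CMT-U27, and 0.59 and 0.79 in CMT-U309, with a mean of 0.37 (SE 0.20, adjusted p = 0.535). Without P114 that mean was 0.60 (SE 0.20), with an unadjusted p of 0.0115 and an adjusted p of 0.0636. A_11_P00000278 had -0.31 and 0.53 in P114, -0.18 and -1.34 in CMT-U27, and 0.38 and -0.19 in CMT-U309, with a mean of -0.19 (SE 0.21, adjusted p = 0.745), and -0.33 (adjusted p = 0.332) without P114. The lowest of these, -1.34, came from the channel of CMT-U27 that was not well above background. No direction for FOSL2 as a gene can be given.

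Of the remaining AP-1 members, FOS, FOSB, FOSL1, JUN and ATF3 had means between -0.14 and 0.12 over the lines, and JUNB a lower one. FOSB had ratios between -0.39 and 0.36 and a mean of 0.12 (95% interval -0.16 to 0.40), and was higher on 5 of 6 arrays. FOS lay between -0.53 and 0.27, with a mean of -0.11 (-0.39 to 0.17), and FOSL1 between -0.40 and 0.18, with a mean of -0.14 (-0.47 to 0.19). JUN lay between -0.20 and 0.52, with a mean of 0.04 (-0.22 to 0.29), and ATF3 between -0.39 and 0.35, with a mean of -0.001 (-0.32 to 0.31). JUNB spread most, from -2.06 on the array with the surrogate value to 0.57, with a mean of -0.38 (-0.90 to 0.15). Without P114 the means were 0.23 for FOSB, -0.16 for FOS, -0.05 for FOSL1, -0.03 for JUN, 0.03 for ATF3 and -0.28 for JUNB, and none had an unadjusted p under 0.05. Without CMT-U27 JUNB had a mean of -0.69 (SE 0.28, unadjusted p = 0.0270, adjusted p = 0.9999), and with P114 array 1 turned 0.0086. For JUN, the upper bound is a 1.22-fold and the lower bound a 0.858-fold ratio, so a 2-fold shift common to the lines lies outside the interval. In limma over the 3 lines the same held for the intervals of all 12 member probes, the widest being that of JUNB, from 0.534-fold to 1.11-fold. It did not hold for every alternative. A 2-fold shift lay inside the interval of 7 member probes in the methods' t-test on the 3 lines. The same was found for FOSL2 on A_11_P052516 without P114. It was also found for JUNB without CMT-U27, P114 array 2 or CMT-U309 array 1, and with the replicate block. With eBayes without a trend and with the deposited ratios it was found for JUNB and JUND. Without CMT-U27 array 1 it was found for JUNB and FOSL2 on A_11_P00000278.

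On all 4 arrays of CMT-U27 and CMT-U309, 5 of the 12 member probes were higher in co-culture, from 4 genes (MYC, EGR1, FOSB and FOSL2 on A_11_P052516), and 17.8% of all probes did the same. EGR1 on A_11_P0000075 was in addition lower on both arrays of P114, as were 4.26% of all probes. On at least 5 of 6 arrays, 4 of the 12 member probes were higher, against 17.0% of all probes. The mean ratios of the member genes, each by its brightest probe, had a median of 0.02, and 5 of 10 were above 0, beside a median of 0.0004 over all 33180 genes.

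**Figure D3:**
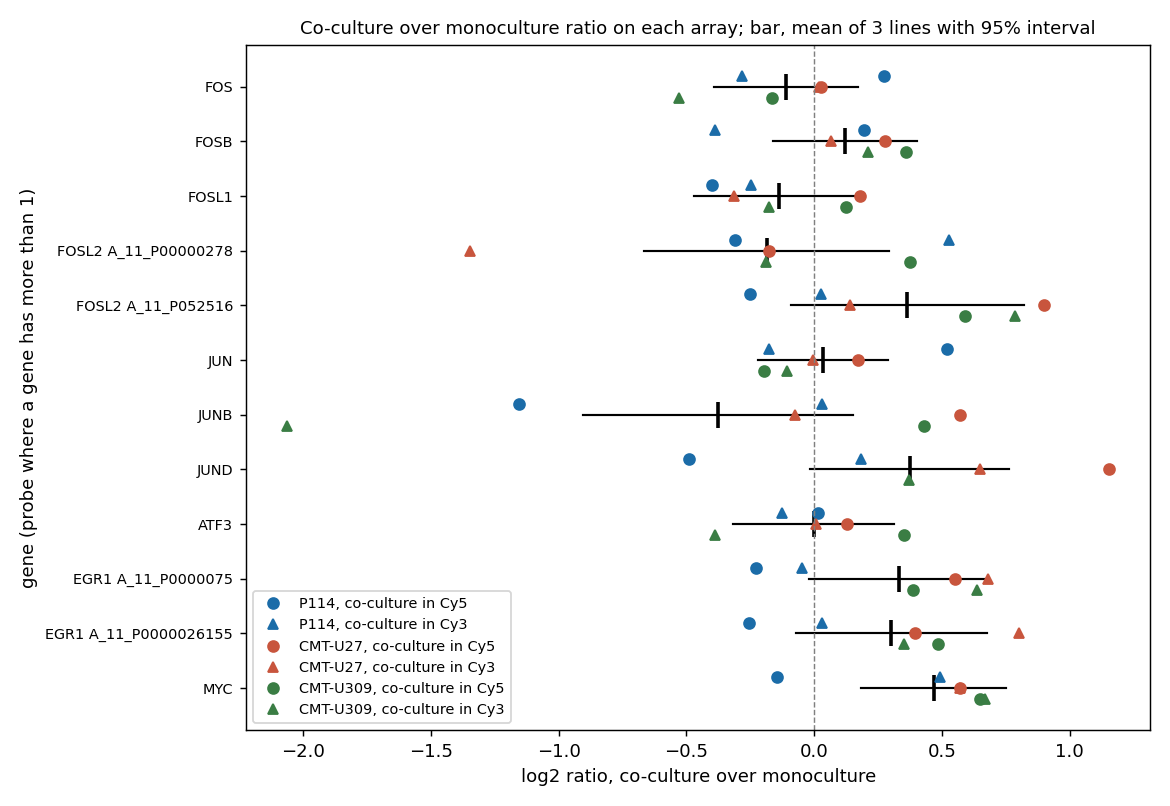
Log2 ratio of co-culture over monoculture (x axis) on each of the 6 arrays for every member probe (y axis), with colour for the line and circles or triangles for the dye of the co-culture RNA; the black mark and bar are the mean of 3 lines and its 95% interval. The interval of MYC alone lies above 0, from 0.18 to 0.75, and P114 array 1 at -0.14 sits apart from its other arrays; the JUNB point at -2.06 is the surrogate value.

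No gene of the lists of partners, regulators and targets passed the thresholds of the methods either, where 1.35% of all genes did. Without P114, 8.29% of all genes were higher and 6.85% lower at an adjusted p under 0.05 in limma. At the thresholds of the methods 2097 of the 40861 probes were then called higher and 575 lower. Of the partners, regulators and targets MAP2K2, MMP13 and MYCN passed these thresholds, all higher in co-culture. MYCN was well above background in 1 of 12 channels and MMP13 in 8. Among 14 AP-1 partners the median log2 ratio was -0.02 and 0 had an unadjusted p under 0.05. The named members were CREM, a cAMP-responsive factor, at -0.36, DDIT3, a stress factor of the C/EBP family, at -0.28 and higher on 0 of 6 arrays, and NFE2L1, which drives proteasome genes, at 0.23. Without P114 CREM alone passed the adjusted p (-0.58, adjusted p = 0.0221). Of 15 kinases upstream of JUN and FOS, 3 had an unadjusted p under 0.05, all higher in co-culture, where 5.61% of all genes did. These were MAP2K2, which activates ERK, at 0.64 (SE 0.25), MAPK3, which encodes ERK1, at 0.31 (SE 0.13), and MAPK9, a JNK that phosphorylates JUN, at 0.48 (SE 0.16). None passed the adjusted p in limma over 3 lines. Without P114 these same 3 of the 15 did, with MAPK3 at 0.45, MAPK9 at 0.66 and MAP2K2 at an adjusted p of 4.45e-04. Of 19 serum response and other early genes, among them regulators such as SRF and ELK1, 1 was higher at an unadjusted p under 0.05. This was NAB2 at 0.70, well above background in 6 of 12 channels. The named ones were EGR2 at 0.22, higher on 6 of 6 arrays, CYR61 at -0.22 and the SRF cofactor ELK3 at -0.17. Without P114 0 of the 19 passed the adjusted p in limma, and CYR61 turned to 0.23. At an unadjusted p under 0.05, 1 of the 19 was then higher and 3 lower, beside 5880 and 5416 of all 33180 genes.

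In the MYC network 2 of 18 genes were higher and 1 lower at an unadjusted p under 0.05, the shares over all genes being 5.61% and 4.51%. RUVBL2, an ATPase of MYC-bound chromatin complexes, had a mean of 0.58 (SE 0.22), and MXI1, which competes with MYC for MAX, 0.27 (SE 0.11). MXD4, another such competitor, had 0.28 (SE 0.15) and did not reach that p. Without P114 RUVBL2 and MXI1 were the 2 of the 18 past the adjusted p, at 0.99 and 0.33. Among 17 known MYC targets 0 had an unadjusted p under 0.05 in either direction, and their median was -0.003. The named targets were the translation factors EIF4A1 at 0.26 and EIF4E at -0.26 and the nucleolar protein NOP58 at -0.25. Without P114 1 of the 17 was higher and 2 lower at an adjusted p under 0.05, the latter being EIF4E at -0.40 and NOP58 at -0.47.

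Genes known as AP-1 or EGR1 targets had a median ratio of 0.20 over 21 genes, with 14 (66.7%) above 0, beside 50.1% of all genes. Of the 21 genes, 5 had an unadjusted p under 0.05, all higher in co-culture, where 5.61% of all genes did, and none passed the adjusted p. Without P114 the median was 0.31 and 7 of the 21 were higher at an adjusted p under 0.05. CCND1, the cyclin of G1 entry, had a mean of 0.44 (SE 0.11) and TGFB1, a secreted growth factor, 0.57 (SE 0.18), each higher on 5 of 6 arrays. VEGFA, which drives vessel growth, had 0.37 (SE 0.13) and was higher on 6 of 6 arrays. The others were CD44 at 0.31 and MMP13 at 0.58, which are named after their values were seen. Both moved without P114, CD44 to 0.48 and MMP13 to 1.01, and TGFB1 to 0.86. MMP13 was well above background in 8 of 12 channels.

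Between lines the same target list differed far more. Of its 21 genes, 12 were higher and 2 lower in P114 than in CMT-U27, where 11.6% and 11.9% of all genes were. Against CMT-U309, P114 had 8 higher and 1 lower, beside 7.44% and 6.84%, and CMT-U27 had 5 higher and 10 lower than CMT-U309, beside 14.6% and 13.6%. TGFB1 was 2.60 higher on the log2 scale in P114 than in CMT-U27 and lower in CMT-U27 than in CMT-U309, with a difference of -2.16. CCND1 ran the other way, 1.08 higher in CMT-U27 than in CMT-U309. Chosen after their values were seen, the urokinase gene PLAU was 4.82 and its receptor PLAUR 4.01 higher in P114 than in CMT-U27. The sums of the epithelial and mesenchymal markers moved with the same split of the lines, and their part in these differences was not tested.

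**Figure D4:**
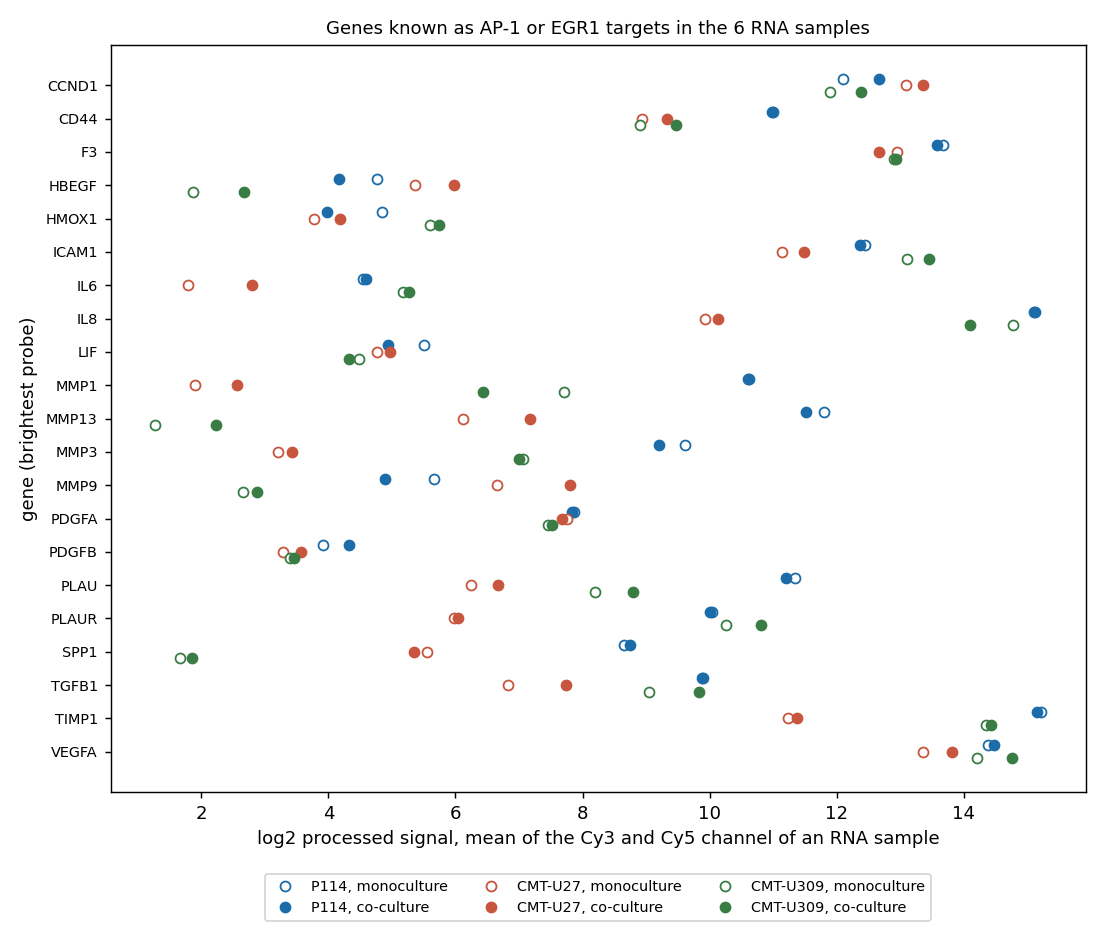
Log2 processed signal (x axis) of the 21 genes known as AP-1 or EGR1 targets (y axis) in the 6 RNA samples, with colour for the line, open circles for monoculture and filled circles for co-culture. PLAUR and TIMP1 are lower in CMT-U27 than in both other lines, where TIMP1 has line means of 15.18 in P114 and 14.39 in CMT-U309; levels are to be read within a gene, and dim values can lie below background.

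The genes with the most similar levels were sought for JUN, FOS and EGR1, which had the widest range of line means among members well above background in all channels. Over 6 RNA samples and 15887 genes, JUN was closest to a transcript with no gene symbol (Pearson r = 0.9996), the RNA-binding protein gene RBMS1 (0.9995) and the collagen gene COL5A2 (0.9995). FOS was closest to 3 transcripts with no gene symbol, with r between 0.998 and 0.999. EGR1 was closest to WBSCR27 (0.995), ACAP2 (0.993) and AGXT2L2 (0.993). The 6 points come from 3 lines, so that a difference between lines sets most of each correlation, and 821 genes lay above 0.95 for JUN, 1097 for FOS and 120 for EGR1.

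Markers of leukocytes bore on whether MDSC RNA was in the co-culture samples. Of 11 such markers on the array, ITGAM and LYZ were well above background in none of the 12 channels, AIF1 and FCER1G in 1 each and PTPRC in 3. TYROBP and MPO were in 6, CSF3R in 7, S100A9 in 9, and CD68 and S100A8 in all 12, and 7 of the 11 were above background in some co-culture channel. Without P114, LYZ and CSF3R passed the thresholds of the methods in opposite directions. Their mean log2 ratios were 1.27 (adjusted p = 0.0494 in limma) and -1.07 (adjusted p = 0.0274). The summed signal of the list was 1601 in monoculture and 1601 in co-culture of P114 and 2246 and 2369 in CMT-U309. In CMT-U27 it was 7871 and 13560, most of it from S100A8, with log2 levels of 12.63 and 13.49. EGR1, MYC and JUND were higher in co-culture in the same line, and the part of the S100A8 signal in those ratios was not tested. Of 4 endothelial markers, PECAM1 and VWF were well above background in all 12 channels, KDR in 8 and CDH5 in none. Their summed signal in monoculture and co-culture was 8290 and 8124 in P114, 5373 and 7533 in CMT-U27, and 6894 and 9417 in CMT-U309. Most of it came from VWF, with log2 levels between 12.25 and 13.10. The small drop of the sum in P114 lay in VWF, at 12.925 in monoculture and 12.890 in co-culture. There PECAM1 (8.97 and 9.02) and the dim KDR (2.65 and 3.17) were higher in co-culture, and CDH5 (2.32 and 2.07) lower. The mean ratio of P114 was -0.14 and -0.11 on the EGR1 probes but 0.18 for MYC. The other lines had a higher sum in co-culture, with EGR1 and MYC higher too. KDR had a mean ratio of 0.44 (unadjusted p = 0.0400, higher on 6 of 6 arrays) and VWF 0.30 (unadjusted p = 0.0421), and the part of these signals in the ratios of MYC and EGR1 was not tested.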

How the data were processed

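The members and the gene lists were chosen with earlier results of these data known. Samples were grouped by the line and the RNA named for each dye in the labels.

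The authors deposited the scanner output of each array, with background and processed signal intensities for both dyes and flags per spot. Per the file headers it was made with Feature Extraction 10.10.1.1, while the submitters' processing notes name Feature Extraction 10.7.3.1. The processed intensities as deposited are background-subtracted and adjusted between dyes, with surrogate values for very low signals. The authors also deposited log10 ratios, which matched the scanner ratios turned to co-culture over monoculture within 4.997e-06. Symbols are those of the files, and all 10 members were found by symbol. The files' coordinates are on canFam2.

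From the processed intensities, channels were scaled to a common median, outlier and control spots left out, probes dropped whose highest scaled intensity was 10 or less, and spots of a probe averaged, then the arrays of a dye-swap. Limma 3.58.1 in R 4.3.3 (lmFit, eBayes with a trend) tested the mean ratio of 3 lines against 0 and, over 6 RNA samples with condition as covariate, the 3 differences between lines, with Benjamini-Hochberg adjustment over 40861 probes.

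A gene was represented by its brightest probe. From each pathway list up to 3 genes with the largest absolute ratio and well above background in all 12 channels were named. The lists were AP-1 partners, serum response and other early genes, kinases, the MYC network, MYC targets, AP-1 and EGR1 targets, and epithelial, mesenchymal, leukocyte and endothelial markers. From the AP-1 and EGR1 targets 1 gene is not reported here.

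The labels number the arrays of a line, and the number marks the dye of the co-culture RNA. Deviations from the line means correlated between arrays with the same number at 0.36, 0.48 and 0.58, so the number pairs arrays by dye.

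The tests were checked on simulated data with 40861 probes. Of 100 probes with a simulated co-culture change of 2 on the log2 scale, limma recovered 98% after adjustment, and of 100 with a change of 4 it recovered 100%. Of 100 with a difference of 1 between P114 and CMT-U27 it recovered 58%, and of 100 with a difference of 2 it recovered 88%. Both co-culture changes were larger than the mean ratio of any member, so the recovery of ratios of that size was not tested. Of all adjusted calls, with both sizes of change counted, 5.71% (12 probes) for co-culture and 13.1% (22 probes) between lines were of unchanged probes. The latter was above the 5% aimed at. The number of arrays limits the precision. Plots were drawn with matplotlib 3.10.9.

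Alternatives tried were normexp (offset 50) with loess, and with Aquantile for levels, the deposited log10 ratios, no scaling, quantile normalization, all probes without the intensity filter, probes well above background alone, outlier spots kept, eBayes without a trend, the methods' t-test, no condition term, fits with the replicate block, the median over a gene's probes, leaving out each array or line, and, chosen after seeing the data, turning the dyes of either P114 array.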

Additional observations from a re-analysis of the deposited data

Results flagged for a closer look

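The MYC ratio on P114 array 1, -0.14, lay far from those of the other 5 arrays, which ran from 0.49 to 0.67. The gap was 0.786 of the range over 6 arrays, and chance alone marks about 1 in 20 groups of independent values. Both arrays of a line carried the same pair of RNA samples, and MYC was flagged from among the member probes. That rate therefore does not hold for this flag. The P114 arrays correlated at -0.39, and whether 1 of them has its dyes labelled the other way round cannot be told from the files. With array 1 turned the MYC ratio would be 0.14. Deviations from the line means also correlated at 0.36 to 0.58 between arrays with the same dye for co-culture. The part of the dye in the P114 ratios was not tested. EGR1 on A_11_P0000075 was lower in co-culture on both arrays of P114 and higher on all arrays of CMT-U27 and CMT-U309, and the mean ratio of P114 differed by -0.75 from that of CMT-U27 and by -0.65 from that of CMT-U309. With P114 array 1 turned its ratios would be 0.23 and -0.05. FOS was higher on both arrays of CMT-U27, by 0.03 and 0.02, and lower on both of CMT-U309, with mean ratios that differed by 0.37. These differences between lines were not tested.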

How the results depend on the processing

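No member probe passed the thresholds of the methods in any alternative run for the co-culture comparison. The count of member probes with an unadjusted p under 0.05, 1 in the report, was 3 without the intensity filter, 2 with outlier spots kept and 0 in the methods' t-test on the 3 lines. It ran from 0 to 5 when an array or a line was left out, and the count past the adjusted p from 0 to 4, where 4 was reached without P114. In the fit of the 6 arrays with the replicate block, which pairs arrays by dye, 2 member probes had an unadjusted p under 0.05 (MYC and EGR1 on A_11_P0000075, with adjusted p of 0.198 and 0.270), and 6 of all probes passed the adjusted p. The block changed no call of a member. JUND could not be fitted there, as 1 of its arrays has no value. With the dyes of P114 array 1 turned, chosen after seeing the data, 5 member probes had an unadjusted p under 0.05 and 2 passed the adjusted p (MYC and JUND).

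Over all probes, the 419 called higher became 3 with normexp, 25 among probes well above background in all 12 channels, 255 with the deposited log10 ratios and 82 in the methods' t-test. The 81 called lower became 0 with normexp, 0 among probes well above background and 35 in the methods' t-test. With P114 array 1 turned 1925 were called higher, 537 lower and 3260 passed the adjusted p, and with array 2 turned 28 and 26 were called. With an array or line left out, the first ran from 30 (without P114 array 2) to 2097 (without P114), the other from 50 (without CMT-U309 array 2) to 703 (without P114 array 1), and the count past the adjusted p from 0 to 6169 (without P114).

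The sign of small mean ratios turned. With normexp it was 0.0041 for FOSL2 on A_11_P00000278, 0.043 for JUNB and 0.050 for ATF3, and the median over the FOSL2 probes was 0.090. With an array or line left out, JUN ran from -0.08 to 0.15, ATF3 from -0.12 to 0.12, FOSL2 on A_11_P00000278 from -0.38 to 0.10, FOS from -0.20 to 0.0096 and JUNB from -0.79 to 0.040. JUN was -0.033 without P114 and -0.081 without P114 array 1. ATF3 was 0.025 without P114, 0.0070 without CMT-U309, 0.022 without P114 array 2, 0.019 without CMT-U27 array 2 and 0.12 without CMT-U309 array 2. FOSL2 on A_11_P00000278 was 0.10 without CMT-U27 and 0.0089 without CMT-U27 array 2. With P114 array 1 turned JUN was -0.14 and JUNB 0.0086, and with array 2 turned ATF3 was 0.040.

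Between lines, normexp with loess and Aquantile left 3618 probes called between P114 and CMT-U27 (9882 in the report), 2000 between P114 and CMT-U309 (5929) and 4252 between CMT-U27 and CMT-U309 (11814), with 2, 0 and 2 member probes among them. Among probes well above background in all channels the counts were 4899, 2633 and 5919, with fewer probes tested, and without scaling 11920 were called between P114 and CMT-U309. Without scaling P114 minus CMT-U309 was -0.11 for FOS, -0.42 for FOSB, -0.25 for FOSL1, -0.57 for FOSL2 on A_11_P00000278 and -0.75 on A_11_P052516, -0.74 for JUN and -0.15 for JUNB, beside a shift of -0.77 in the median of all probes. The JUN difference between these lines was also -0.37 with normexp, -0.25 with quantile normalization, -0.13 without P114 array 2 and -0.054 without CMT-U309 array 2, and that of FOSL2 on A_11_P052516 was -0.0015 with quantile normalization and ran from -0.089 without CMT-U309 array 1 to 0.13 without CMT-U309 array 2. JUNB in P114 minus CMT-U27 ran from -0.55 without P114 array 1 to 0.085 without P114 array 2. In CMT-U27 minus CMT-U309, EGR1 on A_11_P0000075 was -0.050 with normexp, -0.067 without scaling and -0.041 with quantile normalization, and MYC was -0.0011, -0.019 and -0.011. The cause was not tested for any of these.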
